A study of Mus musculus with 9 samples.

Results

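The genes described here encode the high-affinity IgE receptor, the stem cell factor receptor Kit, the interleukin receptor ST2 and the kinases and adaptors that act nearest to them in mast cells. They were chosen by gene symbol and number 10 of the 55274 gene identifiers in the deposited tables. RNA was sequenced from bone marrow cells of C57BL/6J mice that had received 5-fluorouracil at 150 mg/kg 4 days before harvest. The cells were kept for 48 h in DMEM with 15% FBS, 10 ng/mL hIL-6, 6 ng/mL mIL-3 and 20 ng/mL mSCF, the same in all groups, and then transduced with retroviral vectors, which drive their insert constitutively. In 3 libraries the vector carried NRASG12D (MSCV-IRES-BFP), an active mutant of a RAS protein. In 3 others it carried NUP98-NSD1 (MSCV-IRES-GFP), a fusion of a nuclear pore protein with a histone methyltransferase. The last 3 libraries came from NUP98-NSD1+NRASG12D cells, which carried both vectors and are called cotransduced cells here. Cells were expanded and sorted on BFP, GFP or both, not on any mast cell protein, and no group with an empty vector was sequenced. The paper describes the NRASG12D cultures as mostly mast cells positive for the IgE receptor, so the comparison of NUP98-NSD1 with NRASG12D cells asks how the receptor genes differ between the fusion and the RAS mutant. The comparisons with the cotransduced cells ask how they differ when both are present. The labels do not say whether replicates are separate cultures or animals, and p-values therefore measure only the spread between these samples, which may be technical.

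The high-affinity IgE receptor binds IgE through its alpha chain, while its beta chain and a pair of gamma chains carry the signal into the mast cell. When an antigen links receptors, the kinase Lyn phosphorylates the beta and gamma chains, Syk binds to them, and the adaptor Lat, with its relative Lat2, helps to gather phospholipase C and other enzymes that lead to degranulation. Kit and ST2 receive stem cell factor and the alarmin encoded by Il33, which sustain mast cells and add to their response.

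Levels are given as FPKM, fragments per kilobase of transcript divided by the mapped fragments of each library, as deposited by the authors. The depth, estimated from the steps between low FPKM values, was 24100000, 35500000 and 22600000 fragments in the NRASG12D libraries. It was 29600000, 26400000 and 24100000 in the NUP98-NSD1 libraries and 28400000, 24500000 and 22900000 in the cotransduced libraries. At this depth 3 fragments on a transcript of 1 kb correspond to 0.0845 to 0.133 FPKM, a floor that covers counting error only. The median absolute log2 ratio between replicates was 0.130 to 0.169 in NRASG12D, while it was 0.112 to 0.245 in NUP98-NSD1 and 0.308 to 0.532 in cotransduced cells, so the cotransduced libraries were the least alike. The filter kept genes that reached 1 FPKM in 3 or more of the 9 libraries, which held for all 10 genes and for 13493 genes in all. Fold changes are log2 of FPKM + 1, tested by limma, and a gene is called when its p-value, adjusted over all tested genes, is under 0.05.

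In NUP98-NSD1 compared with NRASG12D cells, 6 of the 10 genes were called lower (Ms4a2, Kit, Il1rl1, Btk, Lat and Lat2) and 1 higher (Syk). Of all tested genes 9.98% were called lower and 42.2% higher. The groups did not overlap in 8 of the 10 genes, beside 64.2% of all genes. Between cotransduced and NRASG12D cells, 7 genes were called lower (Fcer1a, Ms4a2, Kit, Il1rl1, Btk, Lat and Lat2) and Syk again higher, beside 14.1% lower and 24.2% higher of all genes. Here 8 of the 10 genes did not overlap between the groups, beside 58.6% of all genes. Between cotransduced and NUP98-NSD1 cells, 6 genes were called lower (Fcer1a, Ms4a2, Kit, Il1rl1, Btk and Lat) and 0 higher (0 also at an unadjusted p under 0.05), beside 6.31% lower and 2.30% higher of all genes, and 8 did not overlap, beside 31.4%. This count of 6 fell to 1 without NUP98-NSD1 replicate 3 or without the filter and to 3 without NUP98-NSD1 replicate 2, and the 7 called between NUP98-NSD1 and NRASG12D cells fell to 1 with all 9 libraries in a single fit.

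The median log2 fold change of the 10 genes was -0.60, -3.53 and -2.59 in the same order of comparisons, beside 0.27, 0.23 and -0.06 for all tested genes. Relative to these medians of all genes, 9, 9 and 7 of the 10 genes lay lower. The comparisons share their libraries in pairs and are given side by side, not as independent results. With quantile normalization or median-ratio scaling between libraries, more of all genes were called lower against NRASG12D cells. For NUP98-NSD1 cells the split went from 5689 higher and 1347 lower to 2619 and 3447 (quantile) or 3059 and 3146 (median-ratio), and for cotransduced cells from 3266 and 1907 to 2155 and 3064 or 2665 and 2574. Of the 10 genes, 7 and 9 were then called lower in NUP98-NSD1 cells against NRASG12D cells and 7 under either scaling in cotransduced cells, while Syk was no longer called higher. The median of the 10 genes was then -0.80 (quantile) or -0.94 (median-ratio) in NUP98-NSD1 against NRASG12D cells. In cotransduced cells it was -3.78 or -3.76 against NRASG12D and -2.67 or -2.49 against NUP98-NSD1 cells. In bulk RNA, fewer cells of a type and less RNA per cell cannot be told apart.

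**Figure D1:**
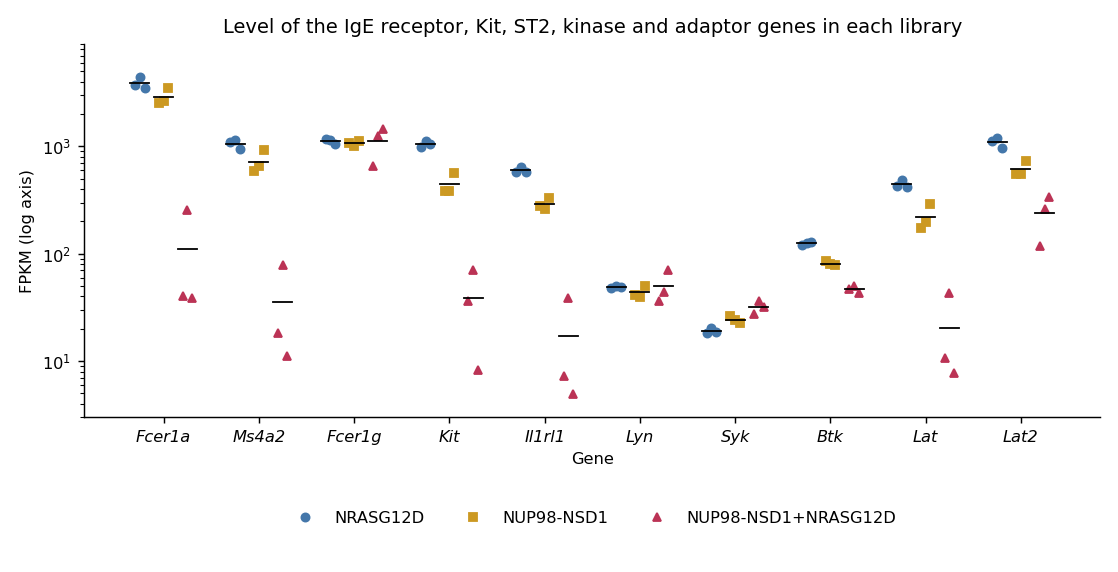
FPKM on a log axis of each of the 10 genes in the 9 libraries, with a point for each library and a black line at the mean of each group of 3. Fcer1a lies between 3538.5 and 4435 FPKM in NRASG12D cells and between 39.1 and 254 FPKM in cotransduced cells, while Fcer1g lies between 652 and 1457.5 FPKM in all groups.

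Fcer1a encodes the alpha chain, which binds IgE, and is identifier ENSMUSG00000005339.10 on chromosome 1 from 173221284 to 173227214 on the minus strand of GRCm38. Its level was 3717, 4435 and 3538.5 FPKM in the NRASG12D libraries, 2559, 2672 and 3465 FPKM in the NUP98-NSD1 libraries and 40.3, 254 and 39.1 FPKM in the cotransduced libraries. The groups did not overlap, and cotransduced replicate 2 stood 6.48 times over the lowest library of its group. Fcer1a ranked between 8 and 9 among all genes in the NRASG12D libraries and between 7 and 10 in the NUP98-NSD1 libraries, but between 358 and 3320 in the cotransduced libraries. The mean was 3897 ± 474 FPKM (SD, n = 3) in NRASG12D, 2898 ± 494 (SD, n = 3) in NUP98-NSD1 and 111 ± 123 (SD, n = 3) in cotransduced cells, which is 2.85% of the NRASG12D mean. Against NRASG12D cells the cotransduced cells were lower, with a change of -5.69 in log2 (standard error 0.69, adjusted p = 0.00108), or -5.92 relative to the median of all genes. Against NUP98-NSD1 cells the change was -5.26 (standard error 0.70, adjusted p = 0.00986), and without the filter on low values this adjusted p was 0.1002.

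The difference of Fcer1a between NUP98-NSD1 and NRASG12D cells missed the threshold, with a log2 fold change of -0.43 (95% interval -0.80 to -0.06, adjusted p = 0.0530) or -0.71 relative to all genes. It passed without NUP98-NSD1 replicate 3, the library nearest to the NRASG12D cells, with -0.57 and an adjusted p of 0.00911, with array weights (-0.54, adjusted p = 0.00360) and with the stricter filter (-0.43, adjusted p = 0.0392), and its adjusted p ran from 0.00360 to 0.608 over the 14 alternatives. The direction depended on the scaling, since the change was -0.77 under median-ratio scaling (adjusted p = 0.0134) and 0.10 under quantile normalization (adjusted p = 0.587).

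Ms4a2 encodes the beta chain, which amplifies the signal, and lies on chromosome 19 from 11615523 to 11623719 on the minus strand (ENSMUSG00000024680.12). It had 1094, 1152.5 and 945 FPKM in NRASG12D, 588, 652 and 917 FPKM in NUP98-NSD1 and 18.1, 78.3 and 11.1 FPKM in cotransduced libraries. As for Fcer1a, the groups kept apart, NUP98-NSD1 replicate 3 came close to the lowest NRASG12D library, and cotransduced replicate 2 was the highest of its group. Group means were 1064 ± 107, 719 ± 174 and 35.9 ± 36.9 FPKM (SD, n = 3 each). Cotransduced cells were lower than NRASG12D cells by -5.33 (standard error 0.63, adjusted p = 0.00100) and lower than NUP98-NSD1 cells by -4.74 (standard error 0.65, adjusted p = 0.0107), or -5.56 and -4.68 relative to all genes. Without NUP98-NSD1 replicate 3 the latter had an adjusted p of 0.0517, and without the filter 0.107.

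NUP98-NSD1 cells had less Ms4a2 than NRASG12D cells, at -0.59 in log2 (standard error 0.18, adjusted p = 0.0275), or -0.86 relative to all genes. This call held under 7 of 14 alternatives, with adjusted p-values from 0.000957 to 0.454. It was lost without NRASG12D replicate 1 (adjusted p = 0.0764), without NRASG12D replicate 2 (0.0804), without NUP98-NSD1 replicate 1 (0.0901) and without NUP98-NSD1 replicate 2 (0.0956), as well as without the filter, with all 9 libraries in a single fit and with the replicate number as a block (0.0528).

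Fcer1g encodes the gamma chain, which the IgE receptor shares with Fc receptors for IgG and with lectin receptors of other myeloid cells, and lies on chromosome 1 from 171229572 to 171234365 on the minus strand (ENSMUSG00000058715.11). Its FPKM was 1182, 1140.2 and 1062 in NRASG12D, 1077, 1018 and 1128 in NUP98-NSD1 and 652, 1251 and 1457.5 in cotransduced libraries. All groups overlapped, and the cotransduced libraries held both the lowest and the highest value of the 9. The cotransduced mean of 1120.1 ± 419 FPKM (SD, n = 3) was 99.3% of the NRASG12D mean of 1128 ± 61.0 FPKM (SD, n = 3), and the NUP98-NSD1 mean was 1074 ± 55.5 FPKM (SD, n = 3). The log2 fold change of Fcer1g was -0.07 (95% interval -0.29 to 0.15, adjusted p = 0.543) in NUP98-NSD1 and -0.09 (-0.86 to 0.68, adjusted p = 0.842) in cotransduced against NRASG12D cells. In cotransduced against NUP98-NSD1 cells it was -0.02 (-0.82 to 0.78, adjusted p = 0.986). These intervals do not reach the falls of Fcer1a and Ms4a2 in cotransduced cells, and the bound nearest to those falls was -0.86. Median-ratio scaling turned Fcer1g into a called fall of -0.41 in NUP98-NSD1 against NRASG12D cells (adjusted p = 0.0188) and gave 0.08 in cotransduced against NUP98-NSD1 cells. Without cotransduced replicate 1, the library with 652 FPKM, the changes in cotransduced cells were 0.26 against NRASG12D and 0.33 against NUP98-NSD1 cells, and neither was called. Relative to the median of all genes the changes were -0.34, -0.32 and 0.04.

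Ratios of chains within a library do not depend on a factor common to all its genes, though they do on quantile normalization, which is not such a factor. The ratio of Fcer1a to Fcer1g FPKM was 3.14, 3.89 and 3.33 in NRASG12D, 2.38, 2.63 and 3.07 in NUP98-NSD1 and 0.0618, 0.203 and 0.0268 in cotransduced libraries. The ratio of Ms4a2 to Fcer1g was 0.925, 1.01 and 0.890 in NRASG12D, 0.546, 0.641 and 0.813 in NUP98-NSD1 and 0.0278, 0.0626 and 0.00765 in cotransduced libraries. In both ratios the groups did not overlap, with NRASG12D libraries highest and cotransduced libraries lowest, and cotransduced replicate 3 had the least alpha and beta chain RNA per gamma chain RNA. The mean log2 ratio of Fcer1a to Fcer1g differed by -0.36 between NUP98-NSD1 and NRASG12D cells, by -5.63 between cotransduced and NRASG12D cells and by -5.27 between cotransduced and NUP98-NSD1 cells. For Ms4a2 to Fcer1g the differences were -0.52, -5.31 and -4.79. Each of these 6 differences had an exact two-sided permutation p of 0.1, the smallest that 3 libraries against 3 can give, and 0.133 after adjustment over 12 comparisons, so none could pass the threshold. After quantile normalization Fcer1a changed by 0.10, Ms4a2 by -0.67 and Fcer1g by -0.18 in NUP98-NSD1 against NRASG12D cells, so the sign of the difference of -0.36 depends on the scaling.

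Fcer1a and Ms4a2 moved more nearly together. Their ratio was 3.40, 3.85 and 3.75 in NRASG12D, 4.35, 4.10 and 3.78 in NUP98-NSD1 and 2.22, 3.24 and 3.51 in cotransduced libraries. NRASG12D libraries overlapped with either other group, and the cotransduced libraries lay under the NUP98-NSD1 libraries. The differences in log2 ratio were 0.15 (exact permutation p = 0.2), -0.32 (exact permutation p = 0.2) and -0.47 (exact permutation p = 0.1) in the order used above, all small beside the falls of either gene in cotransduced cells.

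**Figure D2:**
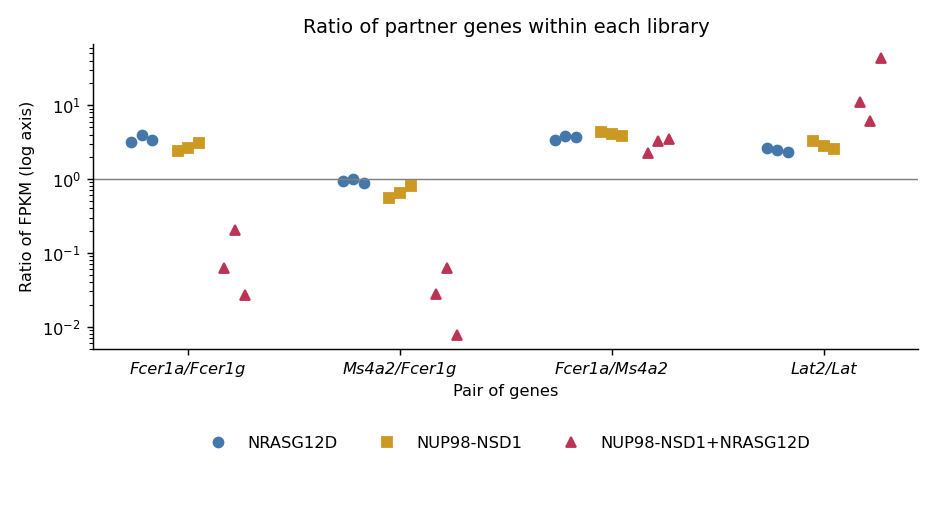
Ratio of the FPKM of paired genes within each library, on a log axis, with a point for each of the 9 libraries. Fcer1a to Fcer1g lies between 2.38 and 3.89 in NRASG12D and NUP98-NSD1 cells and between 0.0268 and 0.203 in cotransduced cells, while Fcer1a to Ms4a2 lies between 2.22 and 4.35 in all 9 libraries.

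Kit encodes the receptor tyrosine kinase for stem cell factor, which was added to every culture, and lies on chromosome 5 from 75574916 to 75656722 on the plus strand (ENSMUSG00000005672.12). It had 982, 1119 and 1049 FPKM in NRASG12D, 387, 382 and 561 FPKM in NUP98-NSD1 and 36.0, 70.7 and 8.27 FPKM in cotransduced libraries. The groups were far apart, and the cotransduced libraries spread the most of the 10 genes, with the highest 8.55 times the lowest. Means were 1050.1 ± 68.7, 443 ± 102 and 38.3 ± 31.3 FPKM (SD, n = 3 each), so NUP98-NSD1 cells had 42.2% and cotransduced cells 3.65% of the NRASG12D level. In NUP98-NSD1 cells Kit was below its NRASG12D level by a log2 value of -1.26 (standard error 0.16, adjusted p = 0.00147), or -1.54 relative to all genes, the largest fall of the 10 genes in that comparison. It was lower in cotransduced than in NRASG12D cells by -5.17 (standard error 0.67, adjusted p = 0.00142), or -5.40 relative to all genes. Against NUP98-NSD1 cells the fall in cotransduced cells was -3.91 (standard error 0.69, adjusted p = 0.0211), or -3.85 relative to all genes. That last call was lost without NUP98-NSD1 replicate 1 (adjusted p = 0.0646), replicate 2 (0.0701) or replicate 3 (0.0912) and without the filter (0.159), and that between NUP98-NSD1 and NRASG12D cells with all 9 libraries in a single fit (0.142).

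Il1rl1 encodes ST2, the chain that binds the alarmin, and lies on chromosome 1 from 40429570 to 40465415 on the plus strand (ENSMUSG00000026069.15). Its FPKM was 575.5, 645 and 573 in NRASG12D, 279.7, 259 and 329 in NUP98-NSD1 and 7.24, 38.7 and 4.90 in cotransduced libraries. No library of a group reached into another group, and cotransduced replicate 2 was again the highest of its group. The NUP98-NSD1 mean of 289 ± 36.3 FPKM (SD, n = 3) was 48.4% and the cotransduced mean of 17.0 ± 18.9 FPKM (SD, n = 3) 2.84% of the NRASG12D mean of 598 ± 40.9 FPKM (SD, n = 3). NUP98-NSD1 cells were lower than NRASG12D cells by -1.05 (standard error 0.11, adjusted p = 0.000892), or -1.32 relative to all genes. Cotransduced cells were lower by -5.58 (standard error 0.66, adjusted p = 0.000959) than NRASG12D and by -4.53 (standard error 0.66, adjusted p = 0.0120) than NUP98-NSD1 cells, or -5.81 and -4.48 relative to all genes. Without NUP98-NSD1 replicate 3 the adjusted p of the latter was 0.0581 and without the filter 0.118, and a single fit of all 9 libraries gave 0.194 for NUP98-NSD1 against NRASG12D cells.

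The partner chain of ST2, Il1rap, did not follow it. Il1rap had 6.63, 9.97 and 5.41 FPKM in NRASG12D, 5.89, 4.99 and 5.45 in NUP98-NSD1 and 5.78, 7.96 and 15.0 in cotransduced libraries, so that all groups overlapped. It was called in none of the comparisons as fitted, with log2 fold changes of -0.34, 0.29 and 0.62, though both scalings gave a called fall in NUP98-NSD1 against NRASG12D cells, by -0.68 (adjusted p = 0.0207) and -0.63 (adjusted p = 0.0312), and array weights gave a called rise of 1.03 in cotransduced against NUP98-NSD1 cells (adjusted p = 0.0221). RNA of the ligands was scarce, with at most 0.399 FPKM of Kitl and at most 0.141 FPKM of Il33 in any library, and neither passed the filter.

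In the FPKM as deposited the order of the levels was NRASG12D, then NUP98-NSD1, then cotransduced cells for Fcer1a, Ms4a2, Kit, Il1rl1, Btk, Lat and Lat2, with no library out of place, and the reverse for Syk. After quantile normalization Fcer1a was not lower in NUP98-NSD1 than NRASG12D cells, and after either scaling Syk differed between these groups by at most 0.02. For Fcer1g and Lyn neighbouring groups did not differ beyond their spread as fitted, while some alternatives, given with each gene, called them lower in NUP98-NSD1 cells. Within the cotransduced group, replicate 2 was the highest library for 7 of the 10 genes and replicate 3 for the other 3 (Fcer1g, Lyn and Lat2), and replicate 1 for 0.

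Lyn encodes the Src family kinase that starts signalling from the IgE receptor and also feeds inhibitory receptors. It lies on chromosome 4 from 3678115 to 3813122 on the plus strand (ENSMUSG00000042228.14). It had 47.6, 49.7 and 49.3 FPKM in NRASG12D, 41.3, 39.9 and 50.4 FPKM in NUP98-NSD1 and 36.3, 43.8 and 69.9 FPKM in cotransduced libraries. The groups overlapped, with cotransduced replicates 1 and 3 the lowest and highest of all 9, and means of 48.9 ± 1.13, 43.9 ± 5.72 and 50.0 ± 17.7 FPKM (SD, n = 3 each). Log2 fold changes were -0.16 (95% interval -0.40 to 0.08, adjusted p = 0.231) for NUP98-NSD1 and -0.02 (-0.60 to 0.55, adjusted p = 0.950) for cotransduced against NRASG12D cells, and 0.14 (-0.47 to 0.75, adjusted p = 0.836) for cotransduced against NUP98-NSD1 cells, or -0.43, -0.25 and 0.20 relative to all genes. The change in NUP98-NSD1 cells became a called fall under quantile normalization (-0.47, adjusted p = 0.0249) and median-ratio scaling (-0.49, adjusted p = 0.0223), with array weights (-0.25, adjusted p = 0.0164) and without NUP98-NSD1 replicate 3 (-0.26, adjusted p = 0.0143). Of the 50-base stretches of Lyn transcripts, 18.3% also occur in Gm11787 or Gm26857, whose levels reached at most 12.9 and 0.400 FPKM. Exons of Gm26857 overlap 248 bases of Lyn exons on the opposite strand. The part of shared reads in the Lyn values was not tested.

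Syk encodes the kinase that binds the phosphorylated receptor chains and lies on chromosome 13 from 52583173 to 52648792 on the plus strand (ENSMUSG00000021457.14). Its level was 18.3, 20.2 and 18.9 FPKM in NRASG12D, 26.4, 24.3 and 22.5 FPKM in NUP98-NSD1 and 27.3, 36.2 and 31.9 FPKM in cotransduced libraries. The groups did not overlap, and Syk alone of the 10 genes had all its cotransduced libraries above those of the other groups. Means were 19.1 ± 0.999, 24.4 ± 1.95 and 31.8 ± 4.48 FPKM (SD, n = 3 each), or 128% and 166% of the NRASG12D mean in NUP98-NSD1 and cotransduced cells. The log2 fold change was 0.33 (standard error 0.09, adjusted p = 0.0205) in NUP98-NSD1 and 0.70 (standard error 0.16, adjusted p = 0.0130) in cotransduced against NRASG12D cells, which relative to the median of all genes is 0.06 and 0.47. Under the scalings the former shrank to 0.02 and 0.01 (adjusted p = 0.871 and 0.907) and the latter to 0.42 and 0.47 (adjusted p = 0.0940 and 0.0967), and none was called. Leaving out NRASG12D replicate 1 or replicate 3 also ended both calls (adjusted p = 0.0705 and 0.0573 for NUP98-NSD1, 0.0655 and 0.0623 for cotransduced cells), as did leaving out NUP98-NSD1 replicate 1 (0.0778) or replicate 2 (0.0665), no filter (0.0516) and a single fit of all 9 libraries (0.0921) for the former. The call of Syk in NUP98-NSD1 cells thus held under 6 and that in cotransduced cells under 10 of 14 alternatives. Cotransduced against NUP98-NSD1 cells gave 0.36 (95% interval -0.02 to 0.75, adjusted p = 0.229) and was not called.

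Btk encodes a Tec family kinase that activates phospholipase C gamma, and lies on chromosome X from 134542336 to 134583570 on the minus strand (ENSMUSG00000031264.13). It had 119.7, 125.6 and 128.8 FPKM in NRASG12D, 84.8, 80.4 and 78.0 FPKM in NUP98-NSD1 and 47.1, 49.9 and 43.6 FPKM in cotransduced libraries. Replicates of Btk lay close together in every group and the groups were clearly apart. Its cotransduced libraries spread the least of the 10 genes, with the highest 1.15 times the lowest. The means of 125 ± 4.62, 81.1 ± 3.42 and 46.9 ± 3.20 FPKM (SD, n = 3 each) put NUP98-NSD1 cells at 65.0% and cotransduced cells at 37.6% of NRASG12D cells. Btk was lower in NUP98-NSD1 cells by -0.62 (standard error 0.07, adjusted p = 0.00128) and in cotransduced cells by -1.39 (standard error 0.13, adjusted p = 0.000419), or -0.89 and -1.62 relative to all genes, and both calls held under all 14 alternatives. Between cotransduced and NUP98-NSD1 cells the change was -0.78 (standard error 0.14, adjusted p = 0.0208), or -0.72 relative to all genes. That call was lost without NUP98-NSD1 replicate 1 (adjusted p = 0.0970), replicate 2 (0.113) or replicate 3 (0.0886), without cotransduced replicate 3 (0.0658) and with a replicate block (0.0713).

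Lat encodes the membrane adaptor on which phospholipase C gamma and its partners assemble, and lies on chromosome 7 from 126363824 to 126369570 on the minus strand (ENSMUSG00000030742.7). Its FPKM was 425, 486 and 419 in NRASG12D, 173, 198 and 289 in NUP98-NSD1 and 10.7, 42.7 and 7.81 in cotransduced libraries. The groups did not overlap, with NUP98-NSD1 replicate 3 and cotransduced replicate 2 the highest of their groups. The means were 443 ± 37.0, 220.0 ± 60.8 and 20.4 ± 19.4 FPKM (SD, n = 3 each). Lat in NUP98-NSD1 cells was lower than in NRASG12D cells by -1.04 (standard error 0.19, adjusted p = 0.00436) and in cotransduced than in NRASG12D cells by -4.74 (standard error 0.55, adjusted p = 0.000944), or -1.31 and -4.97 relative to all genes. Cotransduced cells were also lower than NUP98-NSD1 cells, by -3.71 (standard error 0.58, adjusted p = 0.0146), or -3.65 relative to all genes. This last call was lost without NUP98-NSD1 replicate 2 (adjusted p = 0.0538) or replicate 3 (0.0719) and without the filter (0.130), while a single fit of all 9 libraries gave 0.150 for NUP98-NSD1 against NRASG12D cells.

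Lat2 encodes a related adaptor, which has no binding site for phospholipase C gamma and is also found in B cells and monocytes. It lies on chromosome 5 from 134600022 to 134615025 on the minus strand (ENSMUSG00000040751.12). Lat2 had 1123.5, 1208 and 960.5 FPKM in NRASG12D, 559, 555 and 735 FPKM in NUP98-NSD1 and 119, 262 and 341 FPKM in cotransduced libraries. The groups did not overlap, and cotransduced replicate 3, which was the lowest of its group for Lat, was the highest for Lat2. Means were 1097 ± 126, 617 ± 103 and 241 ± 113 FPKM (SD, n = 3 each), so cotransduced cells had 21.9% of the NRASG12D level, beside 4.61% for Lat. Lat2 was lower than in NRASG12D cells by -0.84 in NUP98-NSD1 cells (standard error 0.15, adjusted p = 0.00391) and by -2.31 in cotransduced cells (standard error 0.38, adjusted p = 0.00398), or -1.11 and -2.54 relative to all genes. A single fit of all 9 libraries gave the former an adjusted p of 0.0999. Cotransduced against NUP98-NSD1 cells gave -1.47 (95% interval -2.41 to -0.54, adjusted p = 0.0666) and was not called, though it was without cotransduced replicate 1 (-1.03, adjusted p = 0.0288), with array weights (-0.98, adjusted p = 0.0259) and with all 9 libraries in a single fit (adjusted p = 0.0206).

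Exons of Lat2 overlap 952 bases of exons of Rfc2 on the opposite strand, and 31.9% of its 50-base stretches are shared with Rfc2. Rfc2 had 415, 380.2 and 392 FPKM in NRASG12D, 324, 323 and 351 FPKM in NUP98-NSD1 and 209, 134 and 129 FPKM in cotransduced libraries. Rfc2 was thus lowest in the same group as Lat2, and since the use of strand in counting is not stated, reads of the overlap cannot be told apart. Among the other members, 2.10% of the 50-base stretches of Ms4a2 and 0.0438% of those of Il1rl1 occur elsewhere. None of those of Fcer1a, Fcer1g, Kit, Syk and Btk do. Lat shares 0.835% with Mir7058, which overlaps 75 bases of Lat exons on the same strand.

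The ratio of Lat2 to Lat FPKM was 2.65, 2.49 and 2.29 in NRASG12D, 3.22, 2.81 and 2.55 in NUP98-NSD1 and 11.0, 6.14 and 43.6 in cotransduced libraries. All 3 cotransduced libraries lay above the others, with replicate 3 the farthest, while NRASG12D and NUP98-NSD1 libraries overlapped. The mean log2 ratio differed by 0.20 between NUP98-NSD1 and NRASG12D cells (exact permutation p = 0.2), by 2.54 between cotransduced and NRASG12D cells (exact permutation p = 0.1) and by 2.33 between cotransduced and NUP98-NSD1 cells (exact permutation p = 0.1). After adjustment over the 12 ratio comparisons these were 0.2, 0.133 and 0.133.

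**Figure D3:**
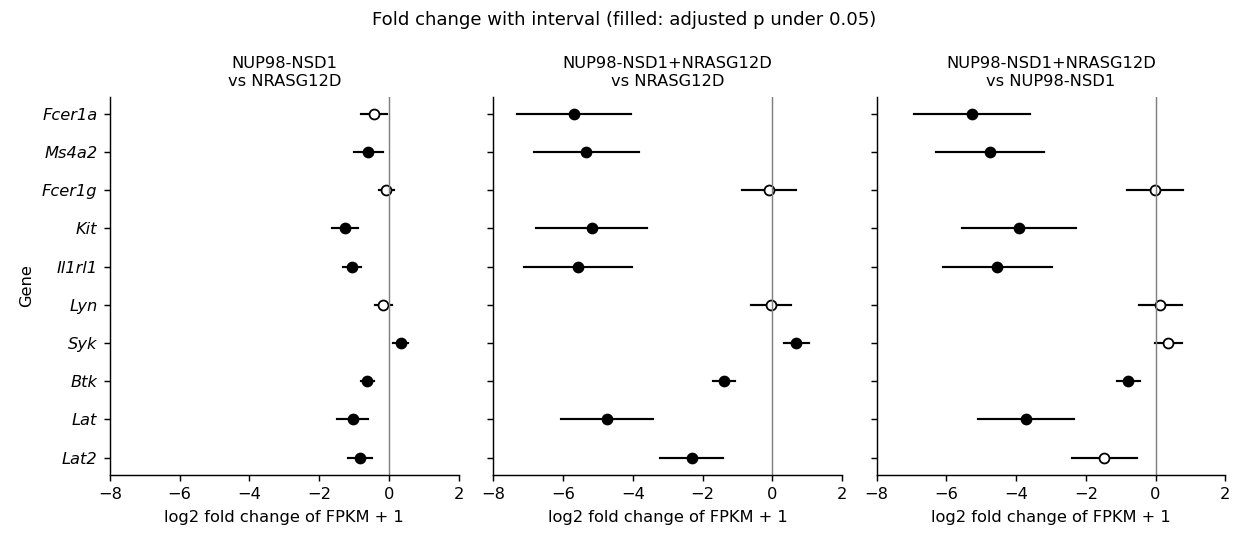
Log2 fold change of FPKM + 1 of the 10 genes in each comparison of groups, with bars for the 95% interval and filled points for adjusted p-values under 0.05. In cotransduced against NRASG12D cells Fcer1a, Ms4a2, Kit, Il1rl1 and Lat lie between -5.69 and -4.74, Lat2 at -2.31 and Btk at -1.39, while Fcer1g at -0.09 and Lyn at -0.02 have intervals that include 0, and Syk at 0.70 lies above it but was not called after scaling between libraries.

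Likeness between genes was measured as the root mean square difference of log2(FPKM + 1) over the 9 libraries, after the mean of each gene was removed, so that 0 means the same profile. Among the 10 genes the nearest pairs were Fcer1g and Lyn at 0.188, Ms4a2 and Il1rl1 at 0.225 and Fcer1a and Ms4a2 at 0.278, and the farthest was Fcer1a and Syk at 2.93. Pairs among Fcer1a, Ms4a2, Kit, Il1rl1 and Lat ran from 0.225 to 0.749 (Fcer1a and Kit), and pairs among Fcer1g, Lyn and Syk from 0.188 to 0.401. Fcer1g stood 2.65 from Fcer1a and 2.46 from Ms4a2, the chains it binds, and Lyn stood 2.73 and 2.54 from them. The measure counts how much each gene varies, so genes that vary little lie near each other and far from Fcer1a and Ms4a2. These distances thus restate the fold changes and are not separate evidence. Of all tested genes, those most like Fcer1a were Ptprg (0.272), Ms4a2 (0.278), Tpsg1 (0.290), Rprm (0.313) and Maob (0.316). Those most like Ms4a2 were Tpsg1 (0.156), Il1rl1 (0.225), Slc45a3 (0.232), Ptprg (0.241) and Slc18a2 (0.260). Tpsg1, which encodes a tryptase, had 1147, 1285 and 1129.8 FPKM in NRASG12D, 532, 622 and 819 FPKM in NUP98-NSD1 and 15.6, 85.0 and 12.4 FPKM in cotransduced libraries, close to Ms4a2 in each. Nearest to Kit were Itga2b (0.267), which is also on the list of megakaryocyte markers, Ctla2a (0.296), Rab27b (0.312), Scin (0.354) and F2r (0.380).

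Fcer1g itself varied little, with a standard deviation of 0.297 on this scale beside 2.69 for Fcer1a, so that genes that vary little on this scale lie close to it, among them genes near 1 FPKM, whose differences the added 1 makes smaller. The nearest were Bank1 (0.0806, from 0.239 to 1.70 FPKM), Fam177a (0.0895), Anxa5 (0.0948), 1700047I17Rik2 (0.0962) and Prkaa1 (0.108). Lat2 was most like Adgre5 (0.130), Cd63 (0.152), Cd63-ps (0.166), Phlda1 (0.177) and Tmem273 (0.202). Its standard deviation was 1.03, beside 2.69 for Fcer1a and 2.48 for Ms4a2. The measure counts the size of the variation, so genes this near to Lat2 could not also be among those nearest to Fcer1a or Ms4a2.

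The gamma chain serves other receptors as well, and its level can be read beside theirs. Of 12 genes listed as its partners or as the related adaptor Tyrobp, 11 were in the tables (not Clec6a) and 9 were tested (not Gp6 and Oscar). Of the 9, 7 were higher in NUP98-NSD1 and the same 7 in cotransduced than in NRASG12D cells (Fcgr1, Fcgr4, Clec4e, Clec4d, Clec4n, Pira2 and Tarm1), and 2 were higher in cotransduced than in NUP98-NSD1 cells (Fcgr4 and Clec4d), beside 42.2%, 24.2% and 2.30% of all genes. Their median log2 fold changes were 2.11, 3.77 and 1.32, beside the medians of all genes of 0.27, 0.23 and -0.06. Clec4n, a lectin receptor for fungal mannans, had 0.322, 3.14 and 0.418 FPKM in NRASG12D, 48.6, 45.6 and 72.5 in NUP98-NSD1 and 62.3, 404 and 185 in cotransduced libraries. It rose the most, by 4.81 in NUP98-NSD1 (adjusted p = 0.000531) and 6.41 in cotransduced cells (adjusted p = 0.000824) against NRASG12D cells. Clec4e rose by 2.79 (adjusted p = 0.000320) and 4.57 (adjusted p = 0.000310). Fcgr1, an IgG receptor, had 0.464, 0.589 and 0.359 FPKM in NRASG12D, 10.5, 9.91 and 10.2 in NUP98-NSD1 and 18.8, 52.2 and 18.5 in cotransduced libraries, and rose by 2.93 (adjusted p = 2.82e-05) and 4.22 (adjusted p = 0.000380) against NRASG12D cells.

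Clec4d, which pairs with Clec4e, had 1.27, 3.42 and 1.60 FPKM in NRASG12D, 22.1, 15.5 and 13.9 in NUP98-NSD1 and 41.1, 106 and 135 in cotransduced libraries. It rose by 2.59 in NUP98-NSD1 (adjusted p = 0.000892) and 4.84 in cotransduced against NRASG12D cells (adjusted p = 0.000442), and by 2.25 in cotransduced against NUP98-NSD1 cells (adjusted p = 0.0277), and the latter call was lost when NUP98-NSD1 replicate 1 (0.0647), replicate 2 (0.102) or replicate 3 (0.114) or cotransduced replicate 2 (0.0675) or replicate 3 (0.0785) was left out, and without the filter (0.181). Fcgr4 rose by 2.30 in cotransduced against NUP98-NSD1 cells (adjusted p = 0.0123), which was lost without NUP98-NSD1 replicate 2 (0.0544) or replicate 3 (0.0569) and without the filter (0.107). Fcgr3, the IgG receptor that mast cells also carry, had 222, 285 and 215 FPKM in NRASG12D, 229, 198 and 164 in NUP98-NSD1 and 281, 691 and 597.5 in cotransduced libraries, and Tyrobp 667.5, 451.5 and 672, then 496, 442 and 388, then 629, 835 and 1019. Neither was called, but under both scalings both were called lower in NUP98-NSD1 cells than in the NRASG12D group.

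Of 50 further genes listed for the signalling next to the receptors, 48 were tested (not Kitl and Il33). In NUP98-NSD1 against NRASG12D cells 11 were higher and 15 lower, in cotransduced against NRASG12D cells 12 higher and 18 lower, and in cotransduced against NUP98-NSD1 cells 2 higher and 10 lower. Of all tested genes 42.2% were higher and 9.98% lower, then 24.2% and 14.1%, then 2.30% and 6.31%. Median log2 fold changes of the list were -0.09, -0.03 and -0.10, beside 0.27, 0.23 and -0.06 for all tested genes, and 36, 33 and 25 of the 48 genes lay below the latter. The groups did not overlap in 32, 34 and 24 genes, beside 64.2%, 58.6% and 31.4% of all genes. The split depended on the scaling, since quantile normalization and median-ratio scaling each gave 7 higher and 27 lower for NUP98-NSD1 and 9 higher and 19 lower for cotransduced against NRASG12D cells. Medians of the list were then -0.40 under both for NUP98-NSD1 and -0.31 and -0.26 for cotransduced cells. Between cotransduced and NUP98-NSD1 cells they gave 4 higher and 10 lower and 3 higher and 8 lower. No called gene of the list changed sign under either scaling. Without the filter limma called 0 genes of the list between cotransduced and NUP98-NSD1 cells, with 23 at an unadjusted p under 0.05, and the count fell to 3 without NUP98-NSD1 replicate 1 or replicate 2, to 2 without NUP98-NSD1 replicate 3 and to 4 without cotransduced replicate 3. By role, the 9 adaptors counted 2 higher and 5 lower, the 19 effectors 3 higher and 9 lower, and the 4 kinases 2 higher (Fgr and Tec) and 1 lower (Csk) in cotransduced against NRASG12D cells. The 7 inhibitors had 3 higher (Ptpn6, Cbl and Dok2) and 2 lower (Inpp5d and Sh2b3), and the 5 inhibitory receptors 2 higher (Milr1 and Fcgr2b) and 1 lower (Cd300a).

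Among the inhibitors Cbl, a ubiquitin ligase that acts on Kit and on Syk, had 2.08, 5 and 3.21 FPKM in NRASG12D, 9.98, 9.5 and 6.12 in NUP98-NSD1 and 16.1, 24.8 and 23.1 in cotransduced libraries. The groups of Cbl did not overlap, in the reverse order of Kit. It rose by 1.23 in cotransduced against NUP98-NSD1 cells (adjusted p = 0.0298), a call that held under 7 of 14 alternatives. It was lost when NUP98-NSD1 replicate 1 (0.0709), replicate 2 (0.0944) or replicate 3 (0.102) or cotransduced replicate 2 (0.0658) or replicate 3 (0.0951) was left out, and without the filter (0.154) or with the replicate block (0.0536).

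Among the adaptors Clnk, a relative of Lcp2, had 94.7, 34.5 and 77.2 FPKM in NRASG12D, 65.3, 67.9 and 104 in NUP98-NSD1 and 5.81, 8.85 and 1.16 in cotransduced libraries. Only the cotransduced libraries stood apart, with falls of -3.61 against NRASG12D (adjusted p = 0.00427) and -3.90 against NUP98-NSD1 cells (adjusted p = 0.0107), the latter lost without NUP98-NSD1 replicate 3 (0.0521) and without the filter (0.107). Grap2, which links Lat to Lcp2, had 6.55, 11.9 and 4.88 FPKM in NRASG12D, 2.87, 2.50 and 3.19 in NUP98-NSD1 and 0.359, 1.37 and 0.292 in cotransduced libraries. Its fall of -1.11 in NUP98-NSD1 against NRASG12D cells (adjusted p = 0.0133) was lost without NUP98-NSD1 replicate 2 (0.0503) and without the filter (0.0830).

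The phospholipases that Lat and Btk serve differed between cotransduced and NRASG12D cells in opposite directions. Plcg1 had 20.7, 32.4 and 31.4 FPKM in NRASG12D, 15.6, 15.8 and 22.7 in NUP98-NSD1 and 2.697, 3.40 and 1.35 in cotransduced libraries. Plcg2 had 34.2, 36.0 and 38.1 FPKM in NRASG12D, 53.9, 49.4 and 40.2 in NUP98-NSD1 and 74.8, 60.8 and 77.8 in cotransduced libraries. The cotransduced libraries had the most Plcg2 and the least Plcg1. Plcg1 fell by 3.09 in cotransduced against NRASG12D cells (adjusted p = 0.000390) and by 2.48 against NUP98-NSD1 cells (adjusted p = 0.00755). Its fall of 0.61 in NUP98-NSD1 against NRASG12D cells (adjusted p = 0.0440), where the groups overlapped, held under 8 of 14 alternatives. Plcg2 rose by 0.39 in NUP98-NSD1 (adjusted p = 0.0293), which is 0.12 relative to all genes, and by 0.95 in cotransduced against NRASG12D cells (adjusted p = 0.00323), and its rise of 0.56 in cotransduced against NUP98-NSD1 cells was not called (adjusted p = 0.103). Downstream of them Prkcb, a protein kinase C, had 74.4, 66.2 and 80.4 FPKM in NRASG12D, 35.7, 35.6 and 46.7 in NUP98-NSD1 and 4.73, 9.84 and 5.92 in cotransduced libraries, and fell by 3.30 (adjusted p = 0.000183) and 2.41 (adjusted p = 0.00699). Itpr2, a calcium channel of the endoplasmic reticulum, had 36.9, 36.0 and 43.0 FPKM in NRASG12D, 15.7, 17.4 and 23.3 in NUP98-NSD1 and 3.09, 7.46 and 2.87 in cotransduced libraries. It fell by 1.02 (adjusted p = 0.00243) in NUP98-NSD1 and 2.95 (adjusted p = 0.000621) in cotransduced against NRASG12D cells, and by 1.93 between cotransduced and NUP98-NSD1 cells (adjusted p = 0.0198). That last call of Itpr2 was lost without NUP98-NSD1 replicate 1 (0.0570), replicate 2 (0.0739) or replicate 3 (0.0890) or cotransduced replicate 3 (0.0634), and without the filter the calls against NUP98-NSD1 cells were lost for Plcg1 (0.0652), Prkcb (0.0612) and Itpr2 (0.137).

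Rasgrp4, an exchange factor for RAS in mast cells, had 54.5, 49.9 and 57.4 FPKM in NRASG12D, 25.4, 23.8 and 27.8 in NUP98-NSD1 and 20.6, 29.4 and 15.2 in cotransduced libraries. It fell by 1.04 in NUP98-NSD1 against NRASG12D cells (adjusted p = 0.000515), and the NUP98-NSD1 and cotransduced libraries overlapped. Pik3r5, a regulatory subunit of phosphoinositide 3-kinase gamma, rose by 1.42 in cotransduced against NUP98-NSD1 cells (adjusted p = 0.0475), a call that held under 5 of 14 alternatives. It was lost when NUP98-NSD1 replicate 1 (0.0585), replicate 2 (0.157) or replicate 3 (0.168) or cotransduced replicate 2 (0.0833) or replicate 3 (0.101) was left out, and with a pseudocount of 0.1 (0.0536), no filter (0.230), median-ratio scaling (0.0613) or the replicate block (0.0609). The inhibitory receptor Lilrb4a had 1253, 1523 and 1279 FPKM in NRASG12D, 485, 472 and 649 in NUP98-NSD1 and 155, 808.5 and 799 in cotransduced libraries. Its fall of -1.34 in NUP98-NSD1 against NRASG12D cells had an adjusted p of 0.00102, which was 0.1002 with all 9 libraries in a single fit.

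The name of the NRASG12D cells as mast cells was checked against 12 other mast cell genes, which hold none of the 10 members. Their summed level was 30962, 32102 and 32533 FPKM in NRASG12D, 25831, 25769 and 30702 FPKM in NUP98-NSD1 and 943, 4365 and 736 FPKM in cotransduced libraries. The cotransduced libraries were thus the lowest, and replicate 2, with the most Fcer1a, Ms4a2, Kit, Il1rl1 and Lat, also had the highest sum. Cma1 was the most abundant in NRASG12D cells, with a mean of 14878 FPKM, and Cpa3 in NUP98-NSD1 and cotransduced cells, with 13452 and 818 FPKM. Cpa3, a defining mast cell protease, is listed at 0 in all NRASG12D libraries, so no fold is given, and without it the sums were 12418, 13205 and 16324 FPKM in NUP98-NSD1 and 590.3, 2544 and 457 FPKM in cotransduced libraries. Of the 11 genes tested (not Mrgprb1), in NUP98-NSD1 against NRASG12D cells 3 were higher (Cpa3, Mcpt4 and Hdc) and 5 lower, 2 higher (Cpa3 and Hdc) and 9 lower in cotransduced than in NRASG12D cells, and 0 higher and 8 lower in cotransduced than in NUP98-NSD1 cells. Beside these counts, and those of the marker lists that follow, stand 42.2% higher and 9.98% lower of all tested genes, then 24.2% and 14.1%, then 2.30% and 6.31%. The calls of Cpa3 against NRASG12D cells rest on its values of 0, and whether these are a lack of RNA or missing values cannot be told apart.

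The summed levels of neutrophil and of monocyte markers were lowest in the NRASG12D libraries, where Fcer1a was highest. The 10 genes of granulocyte progenitors and neutrophils summed to 27.2, 34.5 and 26.6 FPKM in NRASG12D, 6142.5, 5833 and 1734.5 FPKM in NUP98-NSD1 and 14851, 8892 and 19459 FPKM in cotransduced libraries. Within NUP98-NSD1 cells, replicate 3 had the lowest sum and the most Fcer1a, Ms4a2, Kit, Il1rl1 and Lat. Within cotransduced cells, replicate 2 had the lowest sum and the most RNA of these genes. The order of the sums did not hold for each marker. In cotransduced cells replicate 2 was lowest for Elane, Prtn3 and Ctsg, but replicate 1 for S100a8, S100a9, Ngp, Ltf and Camp, and replicate 3 for Mpo and Csf3r. In NUP98-NSD1 cells replicate 2 was lowest for S100a8, S100a9 and Ltf. The monocyte sums were lowest in cotransduced replicate 1 and NUP98-NSD1 replicate 2. The most abundant of the 10 genes were Ctsg with 24.8 FPKM in NRASG12D, Mpo with 1776 in NUP98-NSD1 and S100a8 with 4036 in cotransduced cells. Ltf and Camp were listed at 0 in all NRASG12D libraries. All 10 were higher in NUP98-NSD1 and in cotransduced than in NRASG12D cells, and 3 (S100a8, S100a9 and Camp) in cotransduced than in NUP98-NSD1 cells (2 under quantile normalization and 1 under median-ratio scaling). The 8 monocyte and macrophage genes, led by Lyz2 with means of 34.5, 1268.5 and 7245.5 FPKM, summed to 94.8, 136 and 65.6 FPKM, then 2312, 1698 and 1721 FPKM, then 5014, 11548 and 14107 FPKM in the same order of libraries. Of them 7 were higher in NUP98-NSD1 and 7 higher and 1 lower (Cx3cr1) in cotransduced than in NRASG12D cells, and 3 higher (1 under median-ratio scaling) and 1 lower in cotransduced than in NUP98-NSD1 cells. Their part in the result was not tested.

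The 6 basophil genes, of interest because basophils also carry the IgE receptor, summed to 409.7, 449.6 and 409 FPKM in NRASG12D, 861, 1605 and 953 FPKM in NUP98-NSD1 and 323, 488 and 29.3 FPKM in cotransduced libraries. Cd200r3 led in NRASG12D cells with 379.9 FPKM, and Mcpt8 in NUP98-NSD1 and cotransduced cells with 752 and 184 FPKM. Of 4 tested, against NRASG12D cells 2 were higher and 2 lower in NUP98-NSD1 cells, 1 higher and 2 lower in cotransduced than in NRASG12D cells, and 1 lower in cotransduced than in NUP98-NSD1 cells. The 5 progenitor genes, led by Ly6a, summed to 1859, 1988.5 and 2275 FPKM in NRASG12D, 957, 1168 and 1558 in NUP98-NSD1 and 478, 874 and 197.5 in cotransduced libraries, with 2 higher and 1 lower, then 0 higher and 4 lower, then 0 higher and 1 lower. The 5 megakaryocyte genes summed to 479.5, 563 and 494 FPKM, then 241, 240.9 and 299, then 75.7, 1211 and 115, led by Itga2b in NRASG12D and NUP98-NSD1 cells and by Pf4 in cotransduced cells, where replicate 2 stood out. Of 3 tested, 2 were higher and 1 lower, then 1 higher and 1 lower, then 0 higher and 1 lower. The 4 eosinophil genes reached at most 220.6 FPKM in sum (cotransduced replicate 2), with 3 higher and 0 lower, then 2 higher and 1 lower, then 0 higher and 1 lower. The 5 erythroid genes reached at most 65.3 FPKM, with 3 of 4 tested higher in NUP98-NSD1 and 1 lower in cotransduced than in NRASG12D cells and 0 called between cotransduced and NUP98-NSD1 cells. The 5 B cell genes reached at most 9.19 FPKM, with 1 tested (Cd79b, higher in NUP98-NSD1 than in NRASG12D cells), and the 6 T cell genes at most 1.56 FPKM, with 0 tested and Cd3e and Cd8a listed at 0 in all cotransduced libraries. Under the scalings the counts of the mast cell list and of the lists in this paragraph changed by at most 1 gene in each direction. With at most 5 genes tested in each, the counts in this paragraph are too small to be read against the shares of all genes.

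The table of RefSeq promoters used here holds windows on GRCm38.p6 for 8 of the 10 genes (not Lyn and Lat2), in 11 windows of 250 bases before a start. They were searched for the 6-base GATA words AGATAA or AGATAG or TGATAA or TGATAG on both strands, since GATA factors act in mast cells. Of all 32851 windows of this length 26.5% hold at least 1 of these words, and 416 of 27025 genes (1.54%) hold 3 or more in a window. Of the 11 windows 5 had a match, in 4 of the 8 genes. Il1rl1 had 5 words in chr1:40429320-40429569 (plus strand), which begin 217, 141, 110, 80 and 54 bases before the start, and 1 in its other window, 103 bases before. Ms4a2 had 3 in chr19:11623720-11623969 (minus strand), at 224, 37 and 11 bases, and Fcer1a 1 in chr1:173227230-173227479 (minus strand), at 92 bases. Syk had 1 in 1 of its 2 windows, at 88 bases, and Fcer1g (chr1:171234350-171234599, minus strand), Kit, Btk and Lat had 0. The E-box words CACGTG and CATGTG, found on either strand in 17.6% of all windows, occurred in Fcer1a and Lat. G and C made up 37.6% and 46.4% of the Il1rl1 windows, 38.8% of Ms4a2, 42.4% of Fcer1a and 54.8% of Fcer1g. They made up 71.6% and 47.6% (with the match) of the Syk windows, 49.6% of Btk, 65.2% of Lat and 70.8% of each Kit window. The GATA words are rich in A and T, and the shares of all windows are not matched for this. The part of base composition was not tested. The windows of the IgE receptor chains are shown to compare partners, and that of Il1rl1 because it holds the most words. Kit, Lat and Btk, which were also called lower in cotransduced cells and hold 0 of these words, are not shown. They run 5′ to 3′ on the strand of the gene with the GATA words in capitals, and a match is a description of the letters only.
Fcer1a: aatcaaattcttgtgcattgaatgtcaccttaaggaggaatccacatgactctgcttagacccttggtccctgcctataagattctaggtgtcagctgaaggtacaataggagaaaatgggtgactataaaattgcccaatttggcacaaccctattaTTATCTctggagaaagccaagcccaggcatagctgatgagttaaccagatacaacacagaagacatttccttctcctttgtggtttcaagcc
Ms4a2: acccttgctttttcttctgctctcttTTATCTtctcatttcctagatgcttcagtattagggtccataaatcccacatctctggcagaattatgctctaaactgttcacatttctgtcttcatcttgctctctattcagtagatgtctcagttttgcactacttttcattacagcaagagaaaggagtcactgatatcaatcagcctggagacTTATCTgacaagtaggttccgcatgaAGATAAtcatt
Il1rl1: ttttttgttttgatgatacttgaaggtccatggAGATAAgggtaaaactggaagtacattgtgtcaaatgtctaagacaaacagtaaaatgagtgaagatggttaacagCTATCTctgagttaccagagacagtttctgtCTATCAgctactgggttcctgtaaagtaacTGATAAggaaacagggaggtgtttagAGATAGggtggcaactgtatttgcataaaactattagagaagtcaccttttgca
Fcer1g: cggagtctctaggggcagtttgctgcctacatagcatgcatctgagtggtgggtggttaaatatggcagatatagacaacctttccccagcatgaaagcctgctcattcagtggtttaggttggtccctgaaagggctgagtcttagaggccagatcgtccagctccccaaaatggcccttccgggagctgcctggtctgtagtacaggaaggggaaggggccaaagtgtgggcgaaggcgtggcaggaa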

How the data were processed

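The authors deposited FPKM per gene from Cufflinks 2.2.1, after alignment of paired reads of 50 bp by STAR 2.7.2a to GRCm38.p6, according to the submitters' processing notes. Their methods name DESeq2 on counts, which was not run on FPKM. Each table held 55330 lines, and lines of the same identifier were summed to 55274. Depth was estimated from steps between low values of 3386 genes whose only annotated transcript is over 2500 bp. Of these low values 85.0% to 87.3% fell within 0.2 of a whole step. Each pair of groups was fitted on its 6 libraries with limma 3.58.1 (lmFit, eBayes with trend) in R 4.3.3 on log2(FPKM + 1), two-sided and without a block, and p-values were adjusted by Benjamini and Hochberg's method over 13493 genes. Ratios were compared by exact two-sided permutation tests. Members and lists were chosen with earlier results of these data known, and 2 genes of the pathway list are not reported here and were left out of its counts. Named genes are the members, both ligands, Il1rap, and per comparison the 4 largest rises and 4 largest falls among called genes of the pathway and partner lists together whose groups did not overlap, the leading and absent genes of each marker list, and the 5 genes most like each of 5 members. Other genes named beside them (Plcg2, Fcgr3, Tyrobp, Rfc2, and those named with counts) were chosen after their values were seen. Alternatives were a pseudocount of 0.1, no filter, a stricter filter of 5 FPKM, quantile normalization, median-ratio scaling, a single fit of all 9 libraries, array weights, a replicate block and each library left out. The computing used pandas 2.3.3, numpy 2.4.6, scipy 1.17.1 and matplotlib 3.10.9 under Python 3.11.15. The fit and the depth estimate were tested on simulated data. The simulated fit gave both groups the same spread, unlike the cotransduced libraries. The simulated depths used the same transcript lengths as the estimate, so an error in these lengths could not show.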

Additional observations from a re-analysis of the deposited data

How the results depend on the processing

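Of 75 gene results tried under 1047 alternatives in all, 67 kept their sign in every alternative. Of the 1047, 911 kept sign and side of the threshold, 92 lost a call, 27 gained 1 and 17 changed sign. All sign changes were in results that were not called. With all 9 libraries in a single fit, the members called in NUP98-NSD1 against NRASG12D cells fell from 7 to 1 and the pathway genes from 26 to 15, while pathway genes in cotransduced against NUP98-NSD1 cells rose from 12 to 21. The single fit shares a spread that includes the cotransduced libraries, and the cause was not tested. In cotransduced against NUP98-NSD1 cells, leaving out the filter, which tests 41853 genes in place of 13493, gave 1 member and 0 pathway genes with limma (23 at an unadjusted p under 0.05, and 169 of all genes called). Array weights gave 22 pathway genes and the replicate block 7.

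Signs turned as follows, and the cause was not tested. In NUP98-NSD1 against NRASG12D cells quantile normalization gave 0.10 for Fcer1a and -0.0070 for Clnk, and median-ratio scaling -0.050 for Clnk. In cotransduced against NRASG12D cells array weights gave 0.20 for Fcer1g and 0.29 for Lyn. In cotransduced against NUP98-NSD1 cells median-ratio scaling gave 0.080 for Fcer1g, and array weights 0.31 for Fcer1g and 0.46 for Lilrb4a. With each library left out in turn, Clnk in NUP98-NSD1 against NRASG12D cells ran from -0.15 to 0.57. In cotransduced against NRASG12D cells Fcer1g ran from -0.32 to 0.26, Lyn from -0.29 to 0.18 and Il1rap from -0.061 to 0.56. In cotransduced against NUP98-NSD1 cells Fcer1g ran from -0.25 to 0.33, Lyn from -0.13 to 0.34 and Lilrb4a from -0.59 to 0.60, and the members called from 1 (without NUP98-NSD1 replicate 3) to 7 and the pathway genes from 2 to 17. Under the replicate block 6, 8 and 5 members were called. Residuals of same-numbered libraries correlated between -0.18 and 0.16, and those of differently numbered libraries between -0.30 and 0.31. With 3 libraries in a group this cannot show whether the numbers pair libraries. The ratios kept their direction with a pseudocount of 1 and with each library left out. Quantile normalization was not applied to the ratios themselves, but its fold changes of Fcer1a (0.10) and Fcer1g (-0.18) in NUP98-NSD1 against NRASG12D cells reverse the order behind their ratio's difference of -0.36.

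Setting aside values by their Cufflinks status was intended but not run, since the tables have no status column. FPKM hold no counts, so depth and floors are estimates, and 3 libraries in a group limit the precision of every value.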
